A study of Mus musculus with 8 samples.

Results

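A set of 9 genes had high signal in normal blood-forming progenitors of mice and low signal in leukaemia-initiating cells. These genes were followed to see which came back in Ezh2 knockout cells. They were Ptn, Bgn, Cadps2, Rab6b, Tbxas1, Ak1, Camk1d, Bex1 and Ctr9, 9 of 12393 genes measured, read by 17 of 22690 probe sets of an Affymetrix 3′ expression array. They were selected on measured intensities, for their low signal in leukaemia-initiating cells against normal cells, so that contrast is described here and not tested. Each probe set annotated to a single one of these symbols was kept, and the brightest over the 8 arrays stood for its gene. All values are log2 intensities of the deposited table unless a fold is stated. Values were read against 4.01 as the background level, the highest mean among 27 bacterial control probe sets. That no RNA was spiked in for these was assumed.

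The arrays held 2 samples of Ezh2 KO leukaemia-initiating cells (LICs), 3 of WT LICs and 3 of LSK cells. LICs were GFP+ Lin- Sca1+ Kit+ marrow cells of a retroviral mouse model of chronic myeloid leukaemia (CML), taken 14 days after bone marrow transplantation. They were labelled either Ezh2 KO or WT. LSK cells were Lin- Sca1+ Kit+ marrow cells, a fraction enriched for stem and multipotent progenitor cells, from C57/BL6 mice. The labels give the C57/BL6 strain and an age of 12 weeks for all 3 groups, every sample was sorted 2 times, and the labels do not say how Ezh2 was deleted. No transplantation or retrovirus is given for LSK cells, so leukaemia, transplantation and infection cannot be told apart in comparisons with them.

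Ezh2 is the catalytic subunit of Polycomb repressive complex 2, which methylates histone H3 at lysine 27 and holds many developmental and lineage genes silent. Leukaemia-initiating cells of CML share the surface markers of normal progenitors and carry the BCR-ABL kinase. The 9 genes belong to no single pathway: they encode extracellular proteins, factors of secretion, metabolic and signalling enzymes, a small adaptor protein and a subunit of a transcription elongation complex.

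Ezh2 signal was 8.94 and 9.55 in Ezh2 KO LICs, against 11.33, 11.44 and 11.26 in WT LICs and 10.77, 10.95 and 11.07 in LSK cells. It was 4.29-fold lower in Ezh2 KO than in WT LICs but stayed above background, and whether deletion was incomplete was not tested. Array medians lay between 6.42 and 6.57. Xist stood at 10.69 and 11.18 in Ezh2 KO LICs, at 10.68, 11.06 and 4.35 in WT LICs and at 12.45 to 12.69 in LSK cells. The Y-linked Eif2s3y separated every LIC array from LSK cells. It was at 9.25 or more in Ezh2 KO LICs, 9.21 or more in WT LICs and 1.63 or less in LSK cells. Sex of the cells therefore cannot be told apart from leukaemia, transplantation and infection in comparisons with LSK cells. The other LIC arrays held both Xist and Eif2s3y signal, but WT LIC replicate 3 stood apart from them in Xist. Sex-linked signal therefore also differed among the WT LIC arrays compared with Ezh2 KO LICs. Results without WT LIC replicate 3 are given for Ak1, Rab6b, Bgn, Bex1 and the number of all genes called. Kit, which the gate selects for, averaged 10.17 in Ezh2 KO LICs, 9.77 in WT LICs and 10.95 in LSK cells. Arrays of sorted cells are bulk samples, in which fewer cells of a type and less RNA per cell cannot be told apart.

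Promoter windows of 300 bases, 250 before and 50 after the start, were taken from RefSeq (GRCm38.p6) for 8 of the 9 genes. The set of windows used here held none for Ctr9. The 4 shown belong to the genes that lay above LSK cells in Ezh2 KO LICs, Bex1 and Ak1, and to 2 that lay near or under background there, Rab6b and Ptn. Capitals mark the CpG dinucleotides.
Bex1, chrX:136215464-136215763, minus strand: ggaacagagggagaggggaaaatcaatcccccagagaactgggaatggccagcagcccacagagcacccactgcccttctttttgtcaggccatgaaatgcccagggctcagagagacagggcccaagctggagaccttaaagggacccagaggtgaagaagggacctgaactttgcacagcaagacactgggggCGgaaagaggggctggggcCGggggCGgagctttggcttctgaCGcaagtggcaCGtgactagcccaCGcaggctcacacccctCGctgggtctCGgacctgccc
Ak1, chr2:32621508-32621807, plus strand: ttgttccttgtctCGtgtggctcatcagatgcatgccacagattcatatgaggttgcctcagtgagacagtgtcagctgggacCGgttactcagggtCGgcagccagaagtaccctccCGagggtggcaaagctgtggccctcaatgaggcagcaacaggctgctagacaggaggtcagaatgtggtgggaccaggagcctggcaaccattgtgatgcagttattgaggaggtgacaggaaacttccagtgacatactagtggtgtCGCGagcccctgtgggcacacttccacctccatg
Rab6b, chr9:103111824-103112123, plus strand: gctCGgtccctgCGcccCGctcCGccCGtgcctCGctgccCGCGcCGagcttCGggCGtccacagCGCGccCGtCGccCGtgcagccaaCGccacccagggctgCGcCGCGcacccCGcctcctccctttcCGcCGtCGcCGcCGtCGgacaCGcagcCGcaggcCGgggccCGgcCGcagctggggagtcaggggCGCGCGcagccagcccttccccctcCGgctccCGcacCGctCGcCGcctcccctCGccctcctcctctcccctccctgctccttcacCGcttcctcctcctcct
Ptn, chr6:36810130-36810429, minus strand: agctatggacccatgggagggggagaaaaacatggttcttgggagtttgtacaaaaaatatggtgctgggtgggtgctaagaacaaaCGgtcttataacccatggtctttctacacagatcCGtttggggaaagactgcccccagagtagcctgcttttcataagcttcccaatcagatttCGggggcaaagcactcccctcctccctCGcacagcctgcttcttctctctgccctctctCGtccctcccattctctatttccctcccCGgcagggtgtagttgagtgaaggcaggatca

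CpG counts overlapped between the genes that rose in Ezh2 KO LICs and those that did not. The Bex1 window held 8 CpG dinucleotides and the Ak1 window 6, while Rab6b had 42 and Ptn 6; over all 32851 windows the median was 7 and the quartiles 3 and 20. Among the other genes, Camk1d had 29 at its outermost start, Cadps2 54, Bgn 9 and Tbxas1 4. RefSeq lists 4 windows for Ak1 and 2 for Camk1d, and the outermost is described for each. On both strands, CACGTG was present in the windows of Bex1 and Cadps2 and in 7.15% of all windows, CGGAAG in Camk1d and 16.9% of windows, TGTGGT in Ak1 and 16.8%, and TATAAA in Tbxas1 and 13.6%. AGATAA and TGATAA, found in 11.2% and 9.05% of all windows, were in none of these 8. CACGTG reads the same on both strands, and the CpG within CACGTG and CGGAAG is also counted among the CpG dinucleotides.

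The question asked of the knockout was which of the 9 genes regained signal. In Ezh2 KO LICs, Bex1, Ak1, Camk1d and the brightest probe set of Ctr9 rose against WT LICs, while Cadps2, Bgn, Rab6b, Ptn and Tbxas1 did not pass the test. The 4 called genes compare with 0.589% of all 12393 genes called higher in that comparison (limma, adjusted p under 0.05 over all genes), and none of the 9 was called lower, against 0.0484% of all genes. The median difference between Ezh2 KO and WT LICs was 1.48 over the 9 genes and -0.05 over all genes. The WT LIC arrays that serve as the comparison also helped to choose these genes for their low signal there, so a rise in Ezh2 KO LICs is not independent of that choice. The number called was 2 without Ezh2 KO LIC replicate 1 or 2, WT LIC replicate 1, or LSK replicate 2 or 3, and 1 when each gene was the mean of its probe sets.

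On single arrays, 6 of the 9 genes were higher on both Ezh2 KO LIC arrays than on any WT LIC array, an order found for 13.2% of all genes. All 9 were lower on every WT LIC array than on any LSK array, which also held for 13.2% of all genes and here only restates how the genes were chosen. Differences between WT LICs and LSK cells ran from -4.37 for the brightest probe set of Ctr9 to -1.38 for Tbxas1, with a median of -3.06. The fit called 2.15% of all genes lower in that contrast, and nothing is read from the calls of the 9 genes there, since it chose them. In Ezh2 KO LICs 7 of the 9 lay below every LSK array, as did 20.5% of all genes, and 2, Bex1 and Ak1, lay above every LSK array, as did 18.2% of all genes. Low WT LIC signal was part of the choice and raises the count above WT LICs. High LSK signal was also part of it and raises the count below LSK cells, so all these counts are descriptions.

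**Figure D1:**
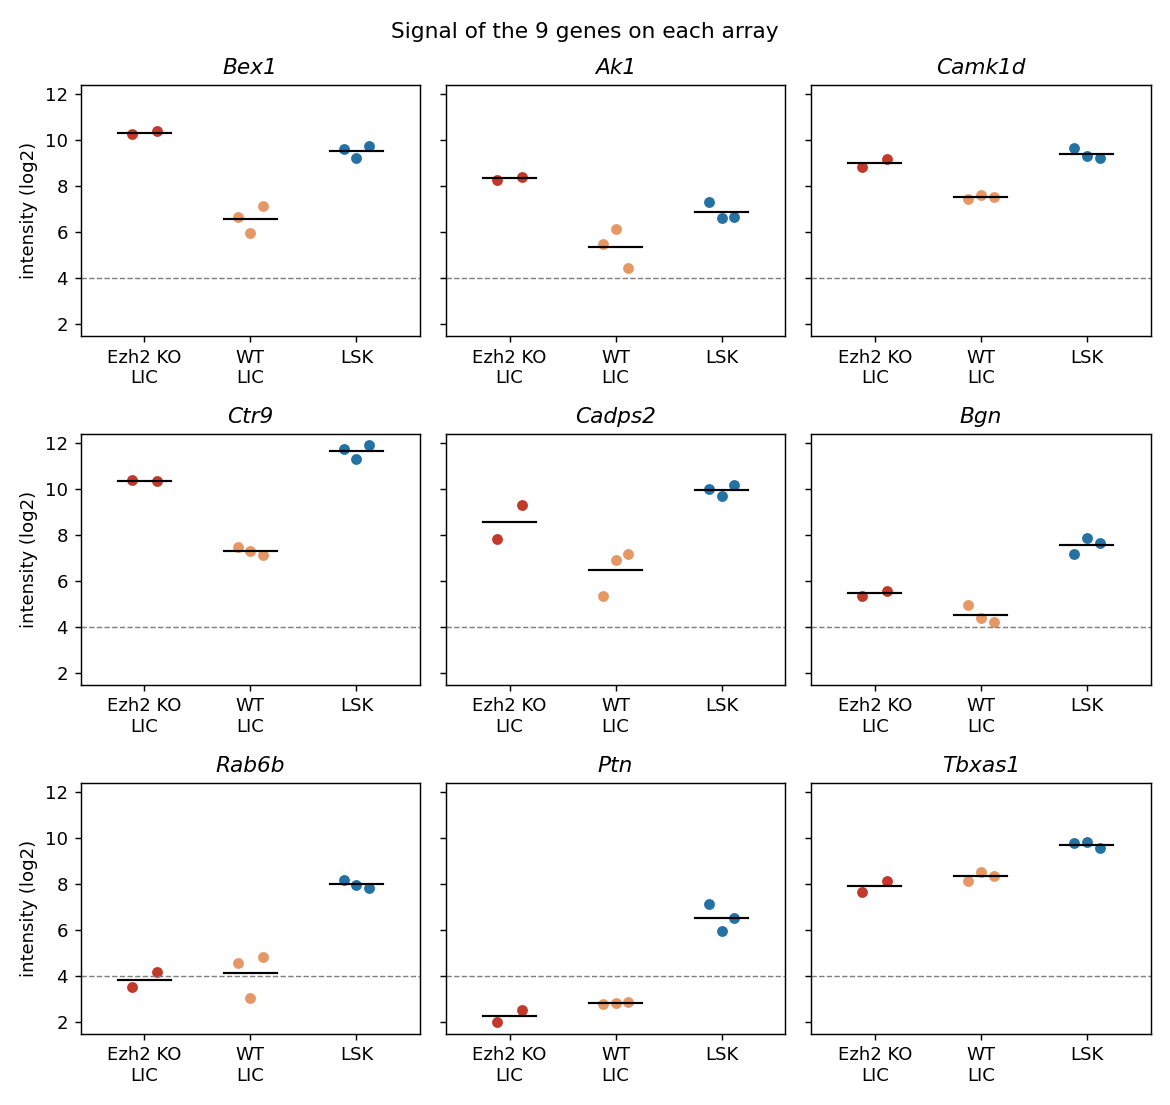
Log2 intensity of each gene's brightest probe set (vertical axes) on the Ezh2 KO LIC, WT LIC and LSK arrays; points are arrays, bars are group means and the dashed line is the background level of 4.01. Bex1 and Ak1 lie above LSK cells in Ezh2 KO LICs, whereas Rab6b and Ptn stay near or under the dashed line in both kinds of LIC.

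Among the extracellular proteins, neither the growth factor gene Ptn nor the proteoglycan gene Bgn regained the LSK level. Ptn encodes pleiotrophin, a heparin-binding growth factor that supports blood stem cells in mice. Its signal was 1.98 and 2.50 in Ezh2 KO LICs, 2.77, 2.82 and 2.87 in WT LICs and 7.12, 5.94 and 6.51 in LSK cells. All 5 LIC arrays lay under background and all 3 LSK arrays above it, so Ptn was at least 5.71-fold lower in Ezh2 KO LICs, and also in WT LICs, than in LSK cells. The second Ptn probe set reached 3.66 at most and stayed under background on each of the 8 arrays.

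Bgn encodes biglycan, a small leucine-rich proteoglycan of the extracellular matrix that can also signal through Toll-like receptors. It measured 5.36 and 5.55 in Ezh2 KO LICs, 4.97, 4.37 and 4.21 in WT LICs and 7.18, 7.87 and 7.67 in LSK cells. The Ezh2 KO arrays lay above all WT LIC arrays without overlap, but the difference of 0.94 (SE 0.29) did not pass (limma adjusted p = 0.286). They lay 2.12 below LSK cells (95% interval of the Ezh2 KO minus LSK difference -2.79 to -1.45). The other 2 Bgn probe sets had the same order of groups, with Ezh2 KO minus WT differences of 0.95 and 0.58. Bgn and Bex1 are on the X chromosome, and the part of the Xist and Y-linked differences in their signal was not tested. Without WT LIC replicate 3, their Ezh2 KO minus WT differences were 0.79 and 4.02.

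Of 13 other measured ligands and receptors of the pleiotrophin pathway, Sdc4 alone was called between Ezh2 KO and WT LICs, where it was higher. It alone was called in WT LICs against LSK cells, where it was lower (there 3.42% of all genes were called in either direction, against 0.637% between Ezh2 KO and WT LICs). Sdc1 moved the same ways without passing, by 2.18 (limma adjusted p = 0.361) and -3.21 (0.0507). The medians of the 13 genes were 0.02 and -0.03. Sdc4 encodes syndecan 4, a heparan sulfate proteoglycan of the cell surface. It averaged 10.65 in Ezh2 KO LICs, 5.20 in WT LICs and 9.21 in LSK cells (Ezh2 KO minus WT 5.45, adjusted p = 0.0437). The pleiotrophin receptor genes Ptprz1, Alk and Itgb3 were under background on every array. Of 12 other small leucine-rich proteoglycans and biglycan receptors, none was called between Ezh2 KO and WT LICs or between WT LICs and LSK cells, and 7 including Dcn and Lum were under background throughout.

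Of the secretion genes, Cadps2 lay between WT LICs and LSK cells in Ezh2 KO LICs, and Rab6b stayed with WT LICs. Cadps2 encodes a calcium-dependent activator of dense-core vesicle release. Its signal was 7.85 and 9.29 in Ezh2 KO LICs, 5.35, 6.93 and 7.18 in WT LICs and 9.99, 9.70 and 10.18 in LSK cells. The 3 groups did not overlap, yet the 2 Ezh2 KO arrays lay more than 1 apart, and the WT LIC arrays spread over more than 1. The difference of 2.08 (SE 0.61) did not pass (adjusted p = 0.26), and it was 1.36 without Ezh2 KO LIC replicate 2. The interval of the Ezh2 KO minus LSK difference ran from -2.80 to 0.03.

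Rab6b encodes a Golgi-associated small GTPase of vesicle traffic, best known from neurons. It was at 3.50 and 4.15 in Ezh2 KO LICs, 4.54, 3.03 and 4.80 in WT LICs and 8.18, 7.95 and 7.80 in LSK cells. The 2 kinds of LIC overlapped around background (adjusted p = 0.86), with an interval of the Ezh2 KO minus WT difference from -1.47 to 0.88. Rab6b was at least 15.7-fold lower in Ezh2 KO LICs than in LSK cells, and 14.5-fold lower in WT LICs. The small estimate of -0.30 between the 2 kinds of LIC was 0.04 without WT LIC replicate 3 and 0.03 without Ezh2 KO LIC replicate 1.

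Beside Cadps2, 14 genes of regulated exocytosis were measured, and none was called between Ezh2 KO and WT LICs or between WT LICs and LSK cells. Its paralogue Cadps and the SNARE gene Snap25 stayed under background on each array. Of 5 other measured genes of the Rab6 family and its effectors, Kif20a, a kinesin needed for cell division, was called higher in WT LICs relative to LSK cells. Kif20a averaged 9.39 in Ezh2 KO LICs, 9.70 in WT LICs and 8.46 in LSK cells, and none of the 5 was called between the 2 kinds of LIC.

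The 3 enzyme genes behaved differently from each other. Tbxas1 encodes thromboxane A synthase, which turns prostaglandin H2 into thromboxane A2 in platelets and macrophages. Its signal was 7.67 and 8.11 in Ezh2 KO LICs, 8.12, 8.51 and 8.35 in WT LICs and 9.76, 9.81 and 9.55 in LSK cells. Both Ezh2 KO arrays were the lowest of all 8, and the difference of -0.43 from WT LICs did not pass (adjusted p = 0.476). Tbxas1 lay 1.82 below LSK cells in Ezh2 KO LICs (interval -2.28 to -1.35) and 1.38 below them in WT LICs (SE 0.18). Its level never came near background.

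Beside Tbxas1, 18 genes of prostanoid and leukotriene synthesis and reception were measured, and none was called between Ezh2 KO and WT LICs. Between WT LICs and LSK cells none was called lower and 2 receptor genes were called higher, where 1.27% of all genes were called higher. Ptgir, the prostacyclin receptor, averaged 7.75 in Ezh2 KO LICs, 7.94 in WT LICs and 4.36 in LSK cells (WT LIC minus LSK 3.58, adjusted p = 0.0109). Ptger3, a prostaglandin E2 receptor, averaged 9.34 in Ezh2 KO LICs, 9.34 in WT LICs and 8.27 in LSK cells (1.06, adjusted p = 0.0353). The prostacyclin synthase gene Ptgis had the smallest p of the list between Ezh2 KO and WT LICs, with a difference of 1.38 that did not pass (adjusted p = 0.0707).

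In Ezh2 KO LICs Ak1 lay above every LSK array, an order that 18.2% of all genes shared. Ak1 encodes adenylate kinase 1, the cytosolic enzyme that interconverts adenine nucleotides. It measured 8.29 and 8.42 in Ezh2 KO LICs, 5.49, 6.14 and 4.46 in WT LICs and 7.33, 6.63 and 6.67 in LSK cells. The groups did not overlap, and the WT LIC arrays were the most spread. Ak1 was 7.97-fold higher in Ezh2 KO than in WT LICs (difference 3.00, SE 0.46, limma adjusted p = 0.043). It stood 1.48 above LSK cells in Ezh2 KO LICs (interval 0.40 to 2.56, not adjusted for the number of genes). With the mean of its probe sets, this excess was 0.47.

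The Ak1 call depended on single arrays. Its adjusted p was 0.137 without Ezh2 KO LIC replicate 1 and 0.225 without replicate 2. Leaving out WT LIC replicate 1 gave 0.129, and leaving out LSK replicate 1, 2 or 3 gave 0.0632, 0.086 or 0.0992. The call was kept without WT LIC replicate 2 (difference 3.38, limma adjusted p = 0.0353) or replicate 3 (2.54, 0.0213). Without replicate 3, the WT LIC array with the lowest Ak1 signal, the WT LIC minus LSK difference was -1.06. Fitted on all 20380 single-symbol probe sets, of which 0.476% were called higher, the adjusted p for Ak1 was 0.0511. The second Ak1 probe set was under background on every array and carries no difference. Of 7 other measured adenylate and creatine kinase genes, none was called between Ezh2 KO and WT LICs or between WT LICs and LSK cells.

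Camk1d rose to near the LSK level. It encodes a calcium- and calmodulin-dependent protein kinase, also known from granulocytes. Its signal was 8.82 and 9.21 in Ezh2 KO LICs, 7.44, 7.64 and 7.53 in WT LICs and 9.68, 9.33 and 9.23 in LSK cells. The WT LIC arrays lay within 0.20 of each other, clear of both other groups, while the highest Ezh2 KO array came just under the lowest LSK array. Camk1d was 2.78-fold higher in Ezh2 KO than in WT LICs (1.48, SE 0.20, limma adjusted p = 0.0274) and differed from LSK cells by -0.40 (interval -0.86 to 0.06).

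The call for Camk1d was lost when some arrays were left out, with an adjusted p of 0.0539 without Ezh2 KO LIC replicate 1, 0.146 without Ezh2 KO LIC replicate 2, 0.0983 or 0.0805 if WT LIC replicate 1 or 2 was dropped and 0.0511 if LSK replicate 2 or 3 was. The dimmer Camk1d probe set, near background, moved by 0.37 between Ezh2 KO and WT LICs (SE 0.49, adjusted p = 0.835). Of 9 other measured calcium-calmodulin kinase genes, none was called in either comparison. Camk1g was under background on each array.

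Bex1 had the largest difference between the 2 kinds of LIC among the 9 genes. It encodes a small brain-expressed X-linked adaptor protein, known from neurotrophin receptor signalling. Its signal was 10.26 and 10.40 in Ezh2 KO LICs, 6.65, 5.98 and 7.12 in WT LICs and 9.62, 9.25 and 9.78 in LSK cells. Both Ezh2 KO arrays exceeded every LSK array, and the WT LIC arrays lay far below all others. Bex1 was 13.5-fold higher in Ezh2 KO than in WT LICs (3.75, SE 0.33, limma adjusted p = 0.00753), and it kept this call under all 18 alternatives, with adjusted p up to 0.0474. The Ezh2 KO minus LSK difference was 0.78 (interval 0.02 to 1.55, not adjusted for the number of genes).

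The relatives of Bex1 beside it on the X chromosome did not pass in the knockout. Tceal8 and Tceal9 are the nearest measured genes on either side in RefSeq order, and they moved by 0.87 (adjusted p = 0.384) and -0.05 (adjusted p = 0.947) between Ezh2 KO and WT LICs. Of 7 other measured genes of the BEX and TCEAL families, none was called between Ezh2 KO and WT LICs. Their median difference was 0.87, with a range from -1.29 for Bex6 to 2.07 for Bex2 (limma adjusted p = 0.274 and 0.321). Tceal1 alone was called between WT LICs and LSK cells, where it was lower. Tceal1 averaged 5.85 in Ezh2 KO LICs, 4.92 in WT LICs and 6.96 in LSK cells (Ezh2 KO minus WT 0.93, adjusted p = 0.368).

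Ctr9 encodes a scaffold subunit of the PAF1 complex, which travels with RNA polymerase II during elongation, and its 4 probe sets disagreed. The brightest, which carries the suffix s_at, read 10.40 and 10.34 in Ezh2 KO LICs, 7.47, 7.29 and 7.12 in WT LICs and 11.74, 11.33 and 11.92 in LSK cells. By this probe set Ctr9 was 8.43-fold higher in Ezh2 KO than in WT LICs (3.07, SE 0.21, limma adjusted p = 0.00274). The groups were widely separated, with Ezh2 KO LICs 1.29 below LSK cells.

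The other 3 probe sets gave no such difference. In order of brightness they moved by 0.05, -0.24 and 0.10 between Ezh2 KO and WT LICs (adjusted p = 0.952, 0.634 and 0.963 over all single-symbol probe sets). With Ctr9 taken as the mean of these 3, the Ezh2 KO minus WT difference was -0.03 (adjusted p = 0.976) and the WT LIC minus LSK difference -0.66, in place of -4.37. By Affymetrix naming, the suffix s_at marks a probe set whose probes can match transcripts of more than 1 gene, and which transcript gave its signal was not tested. Of 3 other measured PAF1 complex genes, none was called in either comparison.

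**Figure D2:**
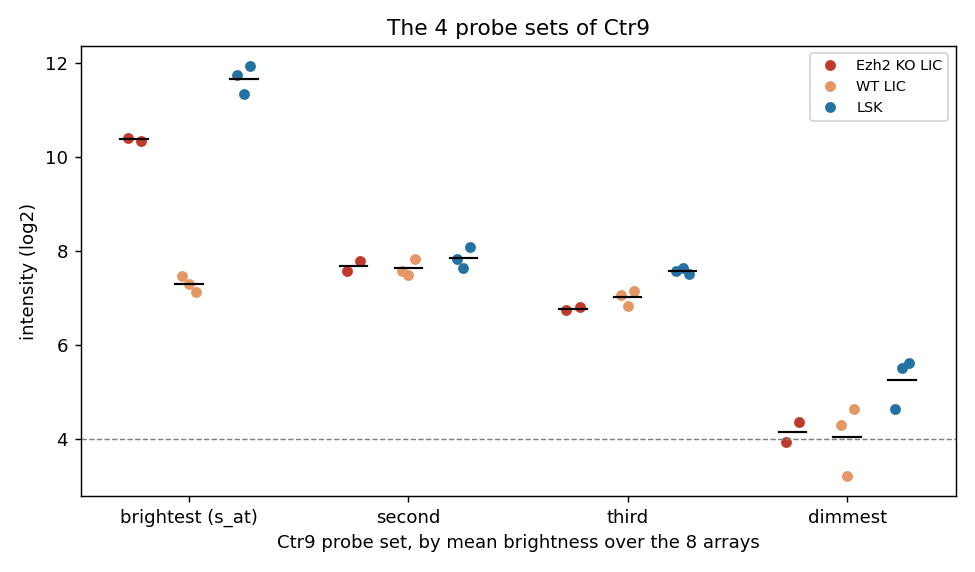
Log2 intensity (vertical axis) of the 4 Ctr9 probe sets (horizontal axis) on each Ezh2 KO LIC, WT LIC and LSK array, with group means as bars and the background level of 4.01 dashed. The brightest probe set separates the groups by several log2 units, and the other 3 move by less than 0.3 between Ezh2 KO and WT LICs.

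The position of Ezh2 KO LICs between the 2 other groups was expressed as the Ezh2 KO minus WT difference in percent of the LSK minus WT difference, so that 0 is the WT LIC mean and 100 the LSK mean. On this scale Ak1 stood at 198%, Bex1 at 126%, Camk1d at 78.7%, the brightest Ctr9 probe set at 70.4%, Cadps2 at 60.1%, Bgn at 30.8% and Tbxas1 at -31.5%. Ctr9 stood at 47.0% by the mean of its 4 probe sets and at -4.52% by the mean of the 3 dimmer ones. No position is given for Ptn and Rab6b, whose signal in LICs lay at or near background. In all, 5 of the 9 genes passed 50%, among them Cadps2, which was not called against WT LICs. Only 4 did without Ezh2 KO LIC replicate 2, when Cadps2 stood at 39.4%, and also 4 with the mean of each gene's probe sets, when Ctr9 did not pass. No share of all genes passing 50% was taken to set beside this count. The WT LIC and LSK arrays that define the scale also chose the genes, so the count is a description. The 2 Ezh2 KO arrays lay close together for the brightest Ctr9 probe set (71% and 69.8%) and Bex1 (124% and 129%), and apart for Cadps2 (39.4% and 80.9%). Neighbours in this order were not tested against each other. The shares do not carry the uncertainty of the LSK minus WT difference by which they divide. For Ak1 the WT LIC minus LSK difference was -1.52 (interval -2.48 to -0.55), and -1.06 without WT LIC replicate 3, so its share is imprecise.

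**Figure D3:**
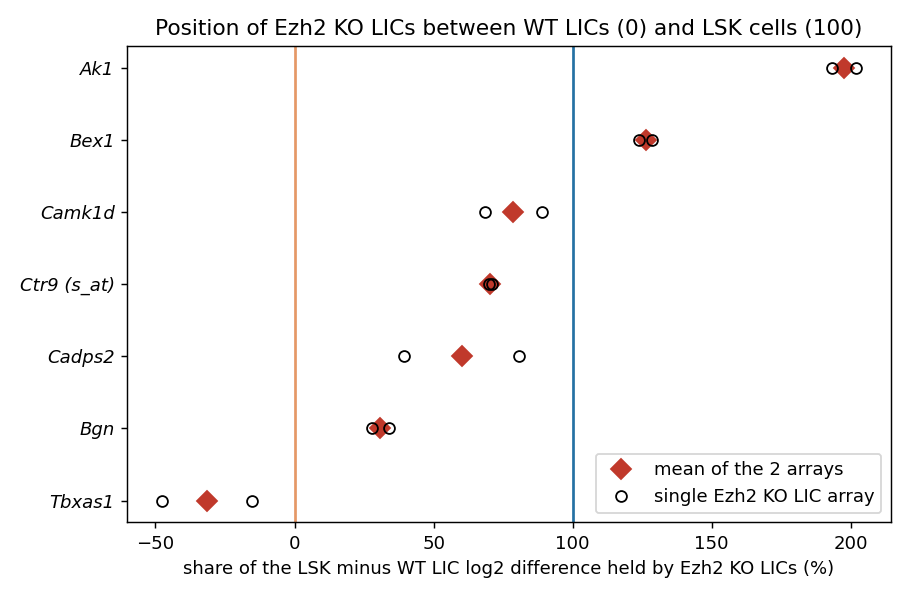
Share of the LSK minus WT LIC log2 difference held by Ezh2 KO LICs (horizontal axis, percent) for the 7 genes above background in LICs, Ctr9 by its brightest probe set (s_at), as the mean of the 2 Ezh2 KO arrays (diamonds) and on single arrays (circles); the vertical lines mark WT LICs at 0 and LSK cells at 100. The genes spread from -31.5% for Tbxas1 to 198% for Ak1. The circles do not show the uncertainty of the LSK minus WT LIC difference.

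**Figure D4:**
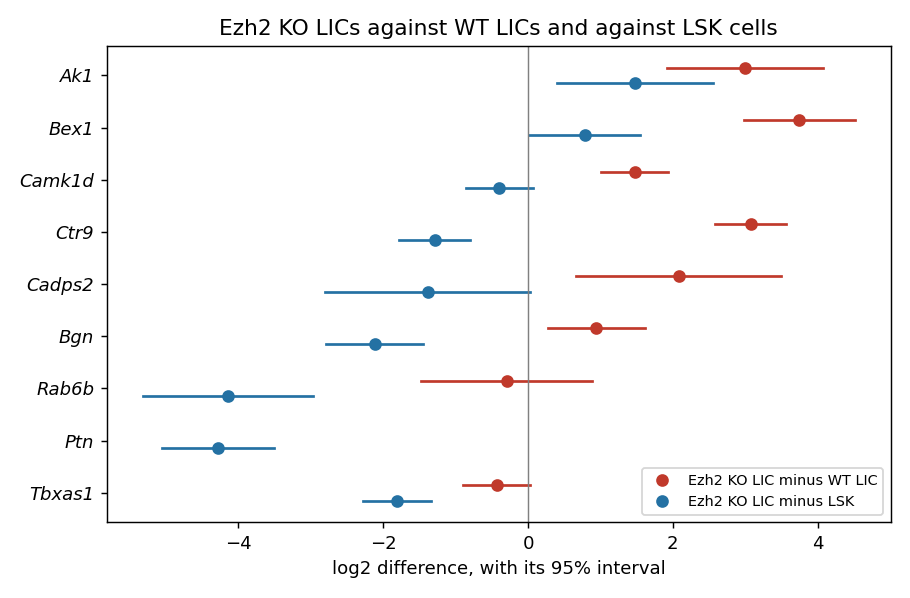
Log2 difference of Ezh2 KO LICs from WT LICs (red) and from LSK cells (blue) for each gene, with 95% intervals of the limma fit that are not adjusted for the number of genes. Camk1d and Cadps2 have intervals against LSK cells that include 0, while Rab6b and Tbxas1 have intervals against WT LICs that include 0. Ptn has no red point because all LIC arrays were under background.

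Markers of other cell types moved with some of the same contrasts, and their part in the signal of the 9 genes was not tested. Beside the rises in Ezh2 KO LICs, 2 of 7 measured B cell markers were called higher against WT LICs, Cd79a and Igll1. Their summed intensity was 4043 to 6844 in Ezh2 KO LICs, 436 to 869 in WT LICs and 823 to 1146 in LSK cells, with Pax5 and Ms4a1 under background on every array. Mast cell and basophil markers summed to 1104 to 2755 in Ezh2 KO LICs, 3705 to 11845 in WT LICs and 632 to 1330 in LSK cells, and 1 of 6, Cpa3, exceeded LSK cells in WT LICs at the threshold. Apart from the B cell list, no marker of any list was called between Ezh2 KO and WT LICs.

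Beside the losses from LSK cells, markers of antibody-secreting cells summed to 1379 to 1613 in Ezh2 KO LICs, 1217 to 1489 in WT LICs and 9176 to 12335 in LSK cells, with 2 of 6, Jchain and Igk, called lower in WT LICs. Megakaryocyte and platelet markers summed to 456 to 522 in Ezh2 KO LICs, 343 to 660 in WT LICs and 1417 to 2380 in LSK cells, with 3 of 7, Pf4, Gp9 and Treml1, called lower in WT LICs. Endothelial markers summed to 444 to 637 in Ezh2 KO LICs, 339 to 577 in WT LICs and 1201 to 1663 in LSK cells, with Emcn and Tie1 of 8 called lower and Kdr, Ptprb and Cldn5 under background. Macrophage and monocyte markers summed to 1794 to 2005 in Ezh2 KO LICs, 1162 to 2333 in WT LICs and 4301 to 5027 in LSK cells, with Lyz2 of 8 called lower. Of 8 measured stem cell markers Hlf and Kit were called lower in WT LICs, and Mecom was under background. They summed to 4152 to 5661 in Ezh2 KO LICs, 3275 to 4726 in WT LICs and 7726 to 8978 in LSK cells.

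Ptn, Bgn, Cadps2, Rab6b and Bex1 are well known from stroma or nerve, and markers of both were read. None of 10 stromal markers was called in either comparison, and Dcn, Lum, Lepr, Pdgfra and Postn were under background on each array; the list summed to 256 to 297 in Ezh2 KO LICs, 254 to 367 in WT LICs and 294 to 483 in LSK cells. None of 8 neural and glial markers was called, and Snap25, Syt1, Nefl and S100b were under background. This list summed to 1115 to 1483 in Ezh2 KO LICs, 1133 to 1452 in WT LICs and 1696 to 2034 in LSK cells. By this sum, which the brightest markers weigh most, each LSK array lay above each LIC array. The median WT LIC minus LSK difference of the 8 markers was 0.13, so the list as a whole was not higher in LSK cells. Neither T and NK cell nor erythroid markers held a called gene in either comparison, with 6 and 5 measured. Erythroid markers summed to 2525 to 3340 in Ezh2 KO LICs, 2453 to 6517 in WT LICs and 1393 to 1988 in LSK cells.

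The genes whose profile over the 8 arrays was most like each of the 9 are given as a description, with Pearson r over the 8 arrays, which share the group structure, among 6689 genes brighter than the median gene in some group. Ptn was closest to Jchain, the joining chain of secreted antibody (r = 0.995), which averaged 4.23 in Ezh2 KO LICs, 5.12 in WT LICs and 10.89 in LSK cells, and next to Nit1 (r = 0.988). Bgn was closest to Krt18 and the Gt(ROSA)26Sor transcript (r = 0.979 and 0.977), Cadps2 to Zfp362 and Utrn (0.984 and 0.978), Rab6b to Eng and Rab2a (0.99 and 0.983) and Tbxas1 to Dnm1l and Ndrg1 (0.982 and 0.974). Among the genes that rose in the knockout, Bex1 was closest to Thbd and Nrk (0.975 and 0.968) and Ak1 to Grb10 and Fyn (0.983 and 0.975). Camk1d was closest to Btg1 (0.983) and then to the brightest Ctr9 probe set (0.973), and that Ctr9 probe set to Ldhb (0.978) and then to Camk1d. Thbd, the thrombomodulin gene, averaged 9.03 in Ezh2 KO LICs, 5.99 in WT LICs and 8.21 in LSK cells.

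By position, Ptn, Cadps2 and Tbxas1 are on chromosome 6, Ak1 and Camk1d on chromosome 2, Bgn and Bex1 on the X chromosome, Rab6b on chromosome 9 and Ctr9 on chromosome 7. The nearest measured gene on each side of the 9 was taken from RefSeq order, and none of these 18 neighbours was called between Ezh2 KO and WT LICs. Mcm10 beside Camk1d was called higher, and Eng beside Ak1 lower, in WT LICs than in LSK cells. Eng, which encodes endoglin, averaged 8.18 in Ezh2 KO LICs, 8.14 in WT LICs and 9.10 in LSK cells, and did not follow Ak1 in the knockout.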

How the data were processed

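Gene expression was measured on 8 arrays of sorted mouse marrow cells. Per the labels' protocols, cells were sorted into lysis buffer and total RNA was amplified by single-primer isothermal amplification and labelled with biotin. The deposited values are linear intensity values of 1.94 to 19343.1, made with RMA per the submitters' processing notes; log2 values had been assumed, and the log2 of every deposited intensity was used as it stood. No source used here gives the background correction.

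Control probe sets (64) and those with several symbols (691) or none listed (1555) entered no gene test. The other 20380 (20351 matched to RefSeq by gene number, for names and gene order) gave 12393 genes, each by its brightest probe set. The 3 groups were fitted together with limma 3.58.1 in R 4.3.3 (lmFit, eBayes, group as the only term, 2-sided, Benjamini-Hochberg over all genes, call at adjusted p under 0.05), tested on simulated data first. Where a group mean lay under background, folds are bounds against 4.01. Plots used matplotlib 3.10.9.

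The members, gene lists and markers were chosen with earlier results of these data known. Named were the 9 genes and their probe sets, Ezh2 and the 2 genes nearest in profile to each of the 9. List and marker genes were named if called in either comparison, and otherwise for the smallest p. Other genes named (Xist, Eif2s3y, Bex2, Bex6, RefSeq neighbours and markers under background) were added after their values were seen. The labels call the repeats biological and give no batch, so batch and group cannot be told apart; whether they came from separate animals is not stated, so p-values measure the spread between these samples. Precision is limited by the few arrays: the median SE of an Ezh2 KO minus WT difference was 0.232. Alternatives were median centring, quantile normalization, cyclic loess, a filter on dim genes, array weights, a robust prior with trend, a fit of only the compared groups, a block for the repeat number, averaging all probe sets per gene, a pseudocount of 16 and each array left out.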

Additional observations from a re-analysis of the deposited data

How the results depend on the processing

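Between Ezh2 KO and WT LICs 79 of 12393 genes were called. There were 119 with array weights, 35 with the compared groups alone, 32 among genes above the 40th percentile and 25 to 146 with single arrays left out, the lowest without WT LIC replicate 1 and the highest without WT LIC replicate 3. Of the 9 genes 4 were called, and 2 were with the compared groups alone, 1 with the mean of all probe sets and 2 to 4 with single arrays left out. With the repeat number as a replicate block 36 genes and 2 of the 9 were called. For pairing, each gene's deviation from its group mean was correlated between same-numbered arrays. The correlations were 0.14 and 0.02 between the 2 kinds of LIC and -0.05 to -0.01 with LSK cells. The 2 Ezh2 KO arrays deviate from their mean by equal and opposite amounts, so these values cannot decide pairing. The numbers were not taken to pair samples. Of the 9 genes, Bex1 kept its call under all 18 alternatives, Camk1d under 9 of 18 and Ak1 under 8 of 18. Ctr9 kept it under 17 of 19, all of which used its brightest probe set alone. It lost the call under the 2 that used its other probe sets. The other 5 genes passed under none. Rab6b, at background in LICs, changed sign with array weights (0.191) and ran from -0.844 to 0.0406 with single arrays left out. Ctr9 changed sign without its brightest probe set (-0.0298), an alternative chosen after its probe sets were seen to disagree. Centring on array medians moved the share of higher calls between WT LICs and LSK cells to 52.2%, against 37.0%, and shifted the median of all genes to 0.11, while all 9 genes stayed lower by over 1 there. Ptn and Rab6b were removed by the filter on dim genes. Signals near background limit Ptn, Rab6b and Bgn.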
